A study of Mus musculus with 5 samples.

Results

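The respiratory chain was examined in RNA of natural killer (NK) cells, lymphocytes that kill infected or transformed cells, from mouse spleen. The 5 libraries comprised 3 from cells after CRISPR knockout of Fli1, an ETS family transcription factor (labelled Fli1 KO), and 2 from cells with the control labelled NTC. The labels give no strain, age, guide, way of delivery, culture condition or time for either group. Members were taken by symbol from the 56691 listed genes: protein-coding genes named for subunits of NADH dehydrogenase (Nduf), succinate dehydrogenase (Sdha to Sdhd), the cytochrome bc1 complex (Uqcr and Cyc1), cytochrome c oxidase (Cox4 to Cox8), ATP synthase (Atp5) and cytochrome c (Cycs), with the 13 protein-coding genes of mitochondrial DNA. This gave 99 gene IDs, 86 nuclear and 13 mitochondrial. The nuclear IDs comprised 36 for complex I, 4 for complex II, 9 for complex III, 18 for complex IV, 18 for complex V and 1 for cytochrome c. Atp5o holds 2 of them, and 1 of those (ENSMUSG00000116933) was listed at 0 in every library. The pattern also matched 4 processed pseudogenes, which were left out as not protein-coding. Ndufa4 was counted with complex I by its name, although its protein is a subunit of cytochrome c oxidase. Cox7a2l in complex IV and Atp5s in complex V were likewise placed by name. Atpif1, the inhibitor of ATP synthase, was not taken by the pattern, and neither were Ndufab1 and Usmg5. The sets follow names and are not complete lists of subunits.

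The respiratory chain moves electrons from NADH (complex I) and succinate (complex II) through coenzyme Q, complex III and cytochrome c to oxygen at complex IV. Complexes I, III and IV pump protons across the inner mitochondrial membrane, and complex V uses the returning protons to make ATP. All complexes but complex II are built from products of both genomes, the mitochondrial genes giving central membrane subunits. NK cells draw on this chain for development, cytokine responses and killing.

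Libraries held 4718390 to 5643791 counts. The members took 1.04% to 1.32% of them. Values are CPM, counts scaled to a common library size with TMM factors, which align libraries on the bulk of their genes. NK markers were high (all 10 over 3 times background, from 21.5 times for Tbx21 to 2232 times for Gzma). Background is the density of counts on olfactory and vomeronasal receptor genes. All 6 B cell, 4 plasma cell, 9 myeloid, 6 erythroid and 4 platelet markers lay under 3 times background, as did 7 of 8 T cell markers, the exception being Cd28, and 4 of 5 stromal and endothelial markers, the exception being Pecam1. Summed platelet markers stood at 45.1 CPM in NTC 2 and at 15.9 to 22.8 CPM in the other libraries. RNA of Fli1 itself was at 389.6, 320.2 and 360.7 CPM in Fli1 KO 1 to 3 and 322.1 and 278.9 CPM in NTC 1 and NTC 2 (log2 fold change 0.25, edgeR adjusted p = 0.641). It was not lower in the libraries labelled Fli1 KO, so gene counts do not check the labels and every direction below rests on them. The labels do not say whether replicates came from separate animals or cultures, and p-values then cover the spread between libraries only, which may be technical.

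The mitochondrial genes fell into a countable and an uncountable part, and this decided which members could be compared at all. Of 13 coding genes, mt-Nd4l, mt-Co3, mt-Atp6 and mt-Atp8 had 0 counts in all 5 libraries, which allows up to 0.520 to 0.627 CPM per library (3 counts, counting error only). mt-Co2, the copper-binding subunit of cytochrome c oxidase, had 3 counts, all in Fli1 KO 2, and mt-Nd3 had 11, 14 and 4 counts in Fli1 KO 1 to 3 and 3 and 2 in NTC 1 and NTC 2. These 6 genes lie between mt-Co1 and mt-Nd4. By contrast mt-Co1, the catalytic subunit of the same oxidase, had 14238, 11239 and 10753 counts in Fli1 KO and 11424 and 8815 in NTC. Among mitochondrial subunits of complex IV, then, 1 of 3 could be compared.

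The empty or nearly empty genes lay in a stretch with a near-perfect nuclear copy in GENCODE M21 (GRCm38). Pseudogenes at chr1:24611535-24616197 aligned to the mitochondrial stretch from base 6390 to base 11042, 4653 bases, with identities of 99.71% or more. Identity was measured on annotated copies of coding genes. mt-Atp8, the tRNA genes and the gaps between genes were not aligned themselves. Inside that stretch lie 11 genes, 6 of them coding, and 9 of the 11 had 0 counts. Together the 11 held 37 counts, against 211668 on the 7 coding genes outside it or only partly inside. The chromosome 1 copies held few counts too, with 0 on the copies of mt-Co2 (Gm28661), mt-Co3 (Gm28437), mt-Atp6 (Gm10925) and mt-Nd4 (Gm28439). A pair with an identical copy is shown first and a pair with a diverged copy second, to show what a read can and cannot tell apart. Each sequence is 60 bases, written 5′ to 3′ in the direction of the gene, from GENCODE transcripts, with bases that differ within a pair in capitals. The first pair is mt-Co2 (chrM:7113-7172, plus strand) and Gm28661 (chr1:24615406-24615465, minus strand), and the second is mt-Nd5 (chrM:12636-12695, plus strand) and Gm4076 (chr13:85127266-85127325, minus strand).
mt-Co2: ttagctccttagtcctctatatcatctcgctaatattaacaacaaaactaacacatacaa
Gm28661: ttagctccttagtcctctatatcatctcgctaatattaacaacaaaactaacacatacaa
mt-Nd5: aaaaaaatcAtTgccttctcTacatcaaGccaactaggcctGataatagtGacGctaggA
Gm4076: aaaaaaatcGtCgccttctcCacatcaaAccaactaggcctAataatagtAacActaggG

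The first pair has 0 differing bases in this window, and 681 of 681 aligned bases of mt-Co2 matched its copy. The second has 8 in the window and an identity of 95.18% over 954 aligned bases. Its window was picked for the most differing bases, up to a limit of 8, so it differs more than the alignment as a whole. mt-Nd5, an antiporter-like subunit of the proton-pumping arm of complex I, kept 7955 to 10856 counts per library, while Gm4076 had 7 to 28. The sources used here do not give how reads with several positions were counted, and the part this played was not tested. The counts of the 6 genes were therefore not read as levels of expression, and no mitochondrially encoded subunit of complex V could be compared.

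**Figure D1:**
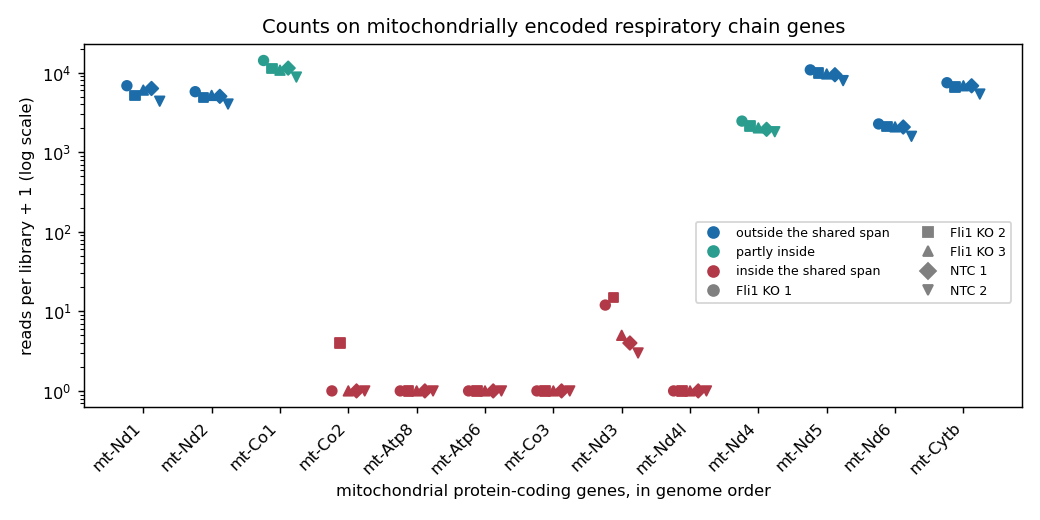
Counts plus 1 (log axis) in each of the 5 libraries (marker shapes) for the 13 mitochondrial protein-coding genes in genome order, coloured by whether the gene lies outside, partly inside or inside the stretch shared with chromosome 1. The 6 genes inside it have 0 to 14 counts per library, the others 1586 to 14238.

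Where they could be counted, mitochondrial transcripts stood far above nuclear ones on the same scale. Among members over 3 times background, mean levels were 290.1 to 1407 CPM per kb of exon for 7 mitochondrial genes and 4.89 to 158 CPM per kb for 72 nuclear genes, with medians of 1010 and 22.6. Exon length is the union over annotated transcripts, so a gene with long rare isoforms appears lower. Parts of mt-Co1 and mt-Nd4 lie in the shared stretch. Over the whole gene they were at 1407 and 290.1 CPM per kb. All counts of the gene divided by its bases outside the stretch gave 2046 and 796 CPM per kb. Counts were not split by position, so these 2 values take every count to come from the outside part, which was not tested. With those 2 values mt-Co1 ranked first among mitochondrial genes, ahead of mt-Nd1 (1157), mt-Cytb (1115), mt-Nd5 (1010), mt-Nd2 (924) and mt-Nd4 (796). Over whole genes mt-Co1 also ranked first. mt-Nd6, which is read from the other strand, was at 749, but without the counter's strand setting its reads cannot be told from antisense transcripts of the opposite strand.

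Nuclear levels differed by complex. Medians over members above 3 times background were 15.4 CPM per kb for complex I (34 genes), 24.9 for complex II (4), 30.3 for complex III (9), 54.6 for complex IV (11) and 23.1 for complex V (14). The highest nuclear level was that of Cox8a, a small subunit of cytochrome c oxidase, at 158 CPM per kb, followed by Atp5a1, the alpha subunit of the catalytic head of ATP synthase, at 105.9. Complex I ran from Ndufs5 (5.46) to Ndufa13 (60.8), which is also known as the cell death regulator GRIM-19. Complex III ran from Uqcrq (13.1) to the hinge protein gene Uqcrh (88.7), complex IV from Cox6c (15.3) to Cox8a, and complex V from Atp5g2 (4.89) to Atp5a1. The mature c subunit of the ATP synthase rotor is encoded by Atp5g1, Atp5g2 and Atp5g3, and of these Atp5g3 had the highest level (25.1, against 2.44 for Atp5g1 and 4.89 for Atp5g2). Cycs, which encodes the soluble electron carrier cytochrome c, was at 3.48 CPM per kb, 2.22 times background. It also had 17 near-identical copies in the annotation. Most of these are miRNA entries that match 107 to 120 bases of its 3123 and have no counts listed. The other copies held 32 counts against 309 on Cycs, so some of its reads could be split.

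**Figure D2:**
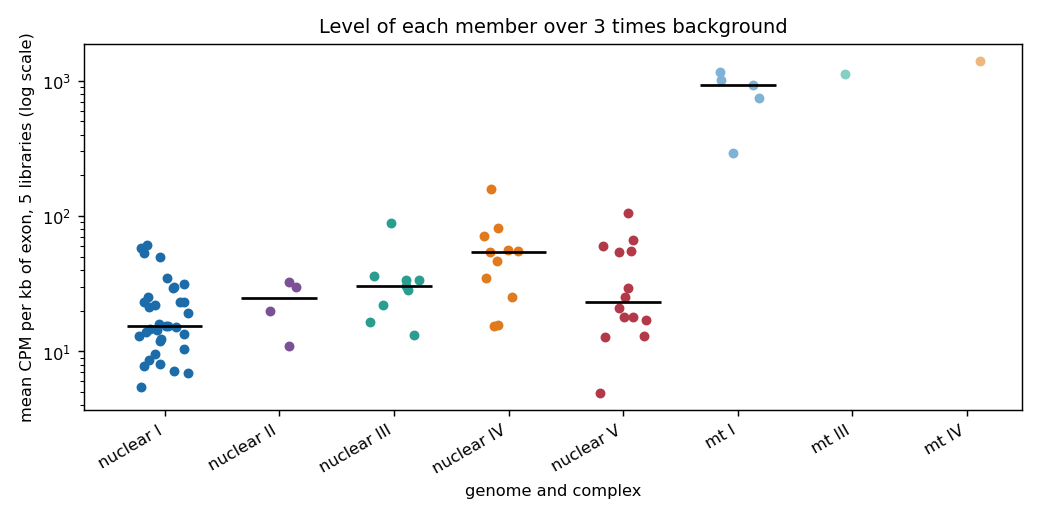
Mean CPM per kb of exon over the 5 libraries (log axis) for each member over 3 times background, by genome and complex, with the median of each set as a bar. Mitochondrial genes lie at 290.1 to 1407 and nuclear genes at 4.89 to 158.

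Cytochrome c oxidase is assembled with ubiquitous or tissue-restricted forms of several subunits, and these NK cells held the ubiquitous forms. Cox4i1, whose product is the regulatory subunit 4, was at 81.6 CPM per kb, and its hypoxia- and lung-associated form Cox4i2 at 1.40. Cox6a1 and the heart and muscle form Cox6a2 were at 71.3 and 1.75, Cox6b1 and the testis form Cox6b2 at 55.05 and 2.54, Cox7a2 and the muscle form Cox7a1 at 46.3 and 2.98, and Cox7b and Cox7b2 at 34.9 and 3.16. Cox8a was at 158, against 1.27 for Cox8b and 2.42 for Cox8c. The 7 restricted forms had 1 to 19 counts per library, 0.815 to 2.03 times background and none passed the limit of 3 times background used here. Of the 99 members, 20 were not over 3 times background: 14 nuclear ones (these 7, the empty Atp5o ID, Cycs, Ndufb2, Ndufb4, Atp5g1, Atp5l and Atp5s) and the 6 mitochondrial genes of the shared stretch.

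No member of the respiratory chain was called between the groups. Of 99 members 88 had enough counts to be tested, and edgeR's quasi-likelihood test (Benjamini-Hochberg over all 30580 genes tested, adjusted p under 0.05) called 0 higher and 0 lower in Fli1 KO, against 0.458% and 0.0883% of all genes tested. At an unadjusted p under 0.05 there were 13 higher and 0 lower, where all tested genes gave 5.23% higher and 3.71% lower (8.94% in all). DESeq2 and limma-voom also called 0. A p above the threshold does not show that levels were equal. Log2 fold changes (Fli1 KO over NTC) ran from −0.22 for Ndufv1 to 0.76 for Ndufb6, apart from mt-Nd3 (1.92, on 2 to 14 counts per library, in the shared stretch). They were positive in 77 of 88, against 47.6% of all genes tested, and in 60 of 88 with library size alone as the scaling, where the median of all genes shifted from −0.02 to −0.14. The median of the 88 was 0.22.

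Genes expressed over background lay on the positive side more often than all tested genes, so the members were also set beside these. The 7606 tested genes over 3 times background had a median of 0.11 and 70.5% were positive, against 0.23 and 89.9% (71 of 79) for the members over that level. Fli1 KO libraries all lay above both NTC libraries in 18 of the 79 (22.8%), against 26.3% of the expressed genes, and all below in 0, against 7.81%. An unadjusted p under 0.05 with a higher value in Fli1 KO was found in 12 of the 79 (15.2%), against 15.4% of the expressed genes, and with a lower value in 0, against 2.88%. Over the 79 together, the shares of members higher in Fli1 KO by these 2 measures were at or under the background, while the share with a positive sign was above it. The genomes differed in this. Fli1 KO lay above both NTC libraries in 14 of 72 nuclear members (19.4%) and 4 of 7 mitochondrial ones (57.1%). An unadjusted p under 0.05 with a higher value was found in 12 (16.7%) and 0 of them. The difference between genomes was not tested. Over all 88 tested members, 20 had Fli1 KO above both NTC libraries and 0 below, where all tested genes gave 11.9% and 13.7%.

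**Figure D3:**
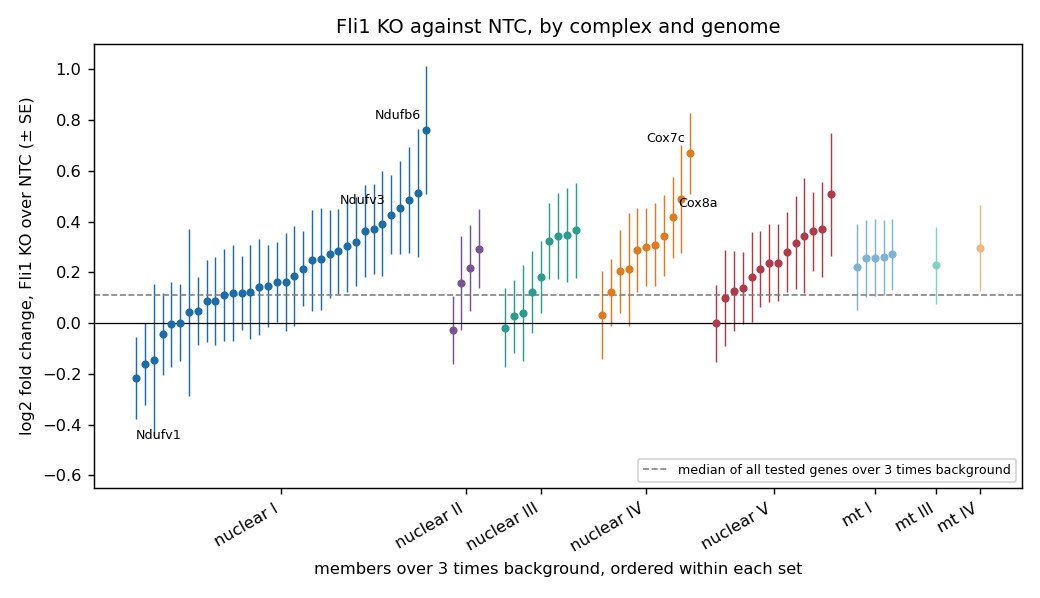
Log2 fold change of Fli1 KO over NTC with its SE (edgeR) for the 79 members over 3 times background, ordered within each complex and genome. The dashed line is the median of all 7606 tested genes over that level, 0.11. No member was called.

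Cox7c came nearest to a call. It encodes a small membrane subunit of cytochrome c oxidase (ENSMUSG00000017778, GRCm38 chr13:86044816-86046904). Its level was 37.1, 32.1 and 32.2 CPM in Fli1 KO 1 to 3 and 22.5 and 19.9 CPM in NTC 1 and NTC 2, so every Fli1 KO library lay above both NTC libraries with a gap wider than the spread within either group. Fli1 KO averaged 33.8 ± 2.86 CPM (SD, n = 3) where NTC averaged 21.2 ± 1.90 CPM (SD, n = 2). The fitted difference was 0.67 on the log2 scale (SE 0.16, edgeR adjusted p = 0.0636). Its call depended on the setting, and it passed the threshold with upper-quartile factors (0.65, adjusted p = 0.0453), without a filter (0.68, 0.0275), with a correction for exon length (0.71, 0.0443) and without NTC 1 (0.79, 0.0179). Of its 4 near-identical copies, Gm12338 had an identity of 100% and 0 counts, and all 4 together held 26 counts against 749 on Cox7c.

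Complex I, the NADH dehydrogenase, had a median log2 fold change of 0.15 over its 36 nuclear members. Ndufb6, an accessory subunit of the membrane arm, was at 11.5, 9.45 and 15.7 CPM in Fli1 KO and 8.50 and 5.64 CPM in NTC (log2 fold change 0.76, SE 0.25, edgeR adjusted p = 0.283). The lowest Fli1 KO library was close to NTC 1. Ndufv3, an accessory subunit of the NADH-binding arm, was at 57.9, 49.6 and 57.4 CPM in Fli1 KO and 47.3 and 34.05 CPM in NTC (0.43, adjusted p = 0.357). The NTC libraries differed from each other more than NTC 1 differed from Fli1 KO 2. Ndufs4, an accessory subunit whose loss causes Leigh-like disease in mice, was at 25.4, 21.8 and 24.8 CPM against 20.5 and 14.2 CPM (0.46, adjusted p = 0.430), also without overlap, and Ndufc2 had a log2 fold change of 0.49 (adjusted p = 0.480) with groups that overlapped. In Ndufa11, an accessory subunit singled out after its values were seen, the controls lay far apart, at 20.1 CPM in NTC 1 and 7.31 CPM in NTC 2, with Fli1 KO between them at 13.6 to 15.9 CPM (0.04, adjusted p = 0.989).

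The 7 nuclear core subunits, which hold the flavin and iron-sulphur clusters that carry electrons, had a median of 0.00 and ran from −0.22 (Ndufv1, the flavin- and NADH-binding subunit) to 0.27 (Ndufs3), with 4 positive and 3 negative and 0 with groups that did not overlap. The 28 accessory subunits had a median of 0.20 and ran from −0.16 to 0.76, a range that covers most of the core's, with 25 positive and 3 negative. Fli1 KO lay above both NTC libraries in 6 of the 28, no larger a share than the 26.3% of expressed genes. Of the 28, Ndufb2 and Ndufb4 were not over 3 times background and so not among expressed genes. The division into core and accessory subunits was drawn up after the values had been seen, and the difference was not tested. Of the mitochondrial complex I genes outside the shared stretch, mt-Nd6 was at 458, 375 and 420 CPM in Fli1 KO and 360 and 331 CPM in NTC (0.27, adjusted p = 0.591). mt-Nd5 was at 2190, 1781 and 1943 CPM against 1635 and 1662 CPM (0.26, adjusted p = 0.661), and mt-Nd4 at 497, 379 and 408 CPM against 336.5 and 378.3 CPM (0.26, adjusted p = 0.639). In these 3 genes Fli1 KO lay above NTC, for mt-Nd4 by a very small gap. mt-Nd1 at 1385, 919 and 1218 CPM against 1099 and 916 CPM (0.22), and mt-Nd2 at 1165, 868 and 1045 CPM against 875 and 844 CPM (0.26), had overlapping groups.

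Complex II, succinate dehydrogenase, also belongs to the citric acid cycle and has only nuclear subunits. Sdha, the flavoprotein, was at 145, 118 and 138 CPM in Fli1 KO and 136 and 137 CPM in NTC (133.6 ± 13.8 CPM, SD, n = 3, against 136.2 ± 0.884 CPM, SD, n = 2). The fitted log2 difference was −0.03 (SE 0.13, edgeR adjusted p = 0.979). NTC lay inside the range of Fli1 KO. Sdhb, the iron-sulphur subunit, and the membrane anchors Sdhc and Sdhd differed by 0.22, 0.29 and 0.16 on that scale (edgeR adjusted p = 0.770, 0.606 and 0.866), and groups overlapped in all 4.

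Complex III and cytochrome c carry electrons from coenzyme Q to complex IV. Cyc1, the haem-bearing cytochrome c1, was at 40.8, 32.1 and 33.85 CPM in Fli1 KO and 39.2 and 32.6 CPM in NTC (−0.02, adjusted p = 0.991). Cycs was at 13.1, 11.1 and 10.7 CPM against 12.3 and 12.1 CPM (−0.07, adjusted p = 0.954). For both genes NTC lay inside the range of Fli1 KO. Uqcrc2, a core protein, was at 94.4, 72.4 and 68.9 CPM against 65.5 and 59.95 CPM (0.32, adjusted p = 0.534). Uqcrq, a small membrane subunit, was at 28.25, 23.01 and 27.6 CPM against 22.02 and 19.2 CPM (0.34, adjusted p = 0.569), and neither gene's groups overlapped. The mitochondrial partner mt-Cytb, which binds the quinone, was at 1510, 1175 and 1380 CPM in Fli1 KO and 1187 and 1126 CPM in NTC (0.23, adjusted p = 0.716), with Fli1 KO 2 below NTC 1. The median of the 9 nuclear members of complex III was 0.18.

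Complex IV, cytochrome c oxidase, had a median of 0.29 over 13 tested members, all but Cox6b2 positive. Without NTC 2 it was 0.10, under complexes III (0.16) and V (0.16). Cox8a was at 129, 86.5 and 111 CPM in Fli1 KO and 90.15 and 72.7 CPM in NTC (0.42, SE 0.16, edgeR adjusted p = 0.396). Cox6a1 was at 71.6, 41.7 and 56.6 CPM against 47.3 and 32.8 CPM (0.49, adjusted p = 0.511). In both, Fli1 KO 2 was below NTC 1, so the groups overlapped. Cox7a2 had 56.7, 41.6 and 45.3 CPM against 41.4 and 33.6 CPM (0.34, adjusted p = 0.532), apart by a margin smaller than the spread within either group. Cox4i1 was at 0.29 and Cox6b1 at 0.31, and Cox7b at 0.21. The mitochondrial catalytic subunit mt-Co1 was at 2873, 2005 and 2167 CPM in Fli1 KO and 1981 and 1841 CPM in NTC (0.30, SE 0.17, adjusted p = 0.641). Fli1 KO 1 stood well above the other 4 libraries. The groups did not overlap, by a small gap between Fli1 KO 2 and NTC 1, where 26.3% of expressed genes lay apart with Fli1 KO higher.

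Complex V, ATP synthase, had a median of 0.24 over 17 tested members. The head and central stalk (Atp5a1, Atp5b, Atp5c1, Atp5d and Atp5e) had a median of 0.21 and ran from 0.00 for Atp5a1 to 0.34 for Atp5e. The 3 rotor ring genes lay at 0.35 to 0.51: Atp5g3 was at 64.6, 47.8 and 67.9 CPM against 49.6 and 43.7 CPM (0.36, adjusted p = 0.490), and Atp5g2 at 11.5, 8.20 and 8.26 CPM against 6.76 and 6.27 CPM (0.51, adjusted p = 0.552). The 4 peripheral stalk genes, which hold the head still, lay at 0.10 to 0.28, and 4 membrane accessory genes (Atp5k, Atp5j2, Atp5l and Atp5mpl) at 0.24 to 0.38. None was called. Fli1 KO lay above both NTC libraries in 0 of 5 head and central stalk genes and 2 of 3 rotor ring genes. It did so in 0 of 4 peripheral stalk genes and 2 of 4 membrane accessory genes. The share was 11.9% of all tested genes and 26.3% of expressed genes, those over 3 times background. Atp5g1, 1 of the 2 rotor ring genes, was at 1.54 times background and so not among expressed genes. Atp5g2, the other, was at 3.11. Atp5l, a membrane accessory gene whose groups overlapped, was at 2.155.

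Libraries of the same group lay far apart in the level of the whole chain. Relative to the mean of the 5 libraries, the median nuclear member over 3 times background stood at 0.28 in Fli1 KO 1, −0.15 in Fli1 KO 2, 0.12 in Fli1 KO 3, 0.02 in NTC 1 and −0.28 in NTC 2 (log2 of CPM + 0.5, 72 genes). The groups overlapped, with Fli1 KO 2 below NTC 1 in 57 of 72 genes and NTC 2 below NTC 1 in 68 of 72. The highest library was Fli1 KO 1 in 52 of them and the lowest NTC 2 in 53. The 5 complexes moved together: for each, Fli1 KO 1 had the highest median and NTC 2 the lowest. The 10 NK markers did not move as 1 group. Their sum, most of it from Gzma, Gzmb, Il2rb and Prf1, followed the same order of libraries, at 13281.7, 8919.9 and 11496.8 CPM in Fli1 KO 1 to 3 and 9526.4 and 6407.4 CPM in NTC 1 and NTC 2. The activating receptor genes Ncr1 and Klrk1 and the transcription factor gene Tbx21 did not follow that order. Tbx21 was at 75.9, 68.5 and 73.6 CPM in Fli1 KO and 95.2 and 107.2 CPM in NTC, Klrk1 at 326.6, 323.0 and 325.0 CPM against 387.3 and 393.8 CPM, and Ncr1 at 275.6, 230.8 and 247.1 CPM against 358.5 and 277.6 CPM. In these 3 genes, picked after their values were seen, every Fli1 KO library lay below both NTC libraries, and none was called (edgeR adjusted p = 0.145, 0.575 and 0.463). Of expressed genes, 7.81% lay apart with Fli1 KO lower. Of the 10 NK markers, 6 had a positive log2 fold change and 4 a negative one. At an unadjusted edgeR p under 0.05, 4 were higher and 2 lower, and 0 were called. Unscaled background counts per kb were 7.537, 9.506 and 7.327 in Fli1 KO and 8.004 and 8.541 in NTC. Genes of the Gm10800 family took 18.12%, 19.33% and 16.26% of counts in Fli1 KO and 12.13% and 22.34% in NTC. Both were highest in Fli1 KO 2 and NTC 2, where the median nuclear member was lowest. The Gm10800 share was lowest in NTC 1, not in Fli1 KO 1, which had the highest median. The part of effector gene levels, background or these genes in the members' differences was not tested. Fewer cells of a type and less RNA per cell cannot be told apart in such bulk libraries.

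Leaving out a control library moved nuclear members more than mitochondrial ones. Without NTC 1 the nuclear median was 0.40, and calls over all 32877 genes tested went from 140 higher and 27 lower to 703 and 174. In that fit 8 members were called higher: Cox7c, Cox6a1, Cox8a, Ndufv3, Ndufb6, Ndufb11, Ndufa11 and Ndufs4. Without NTC 2 it was 0.08 with 0 called. The mitochondrial median was 0.33 and 0.24 in the same fits. In a fit with 1 NTC library, that library is assumed to vary like the Fli1 KO libraries.

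The ratio of mitochondrial to nuclear members did not separate the groups. Summed nuclear members were at 4577, 3368 and 4078 CPM in Fli1 KO and 3877 and 3166 CPM in NTC, and summed countable mitochondrial members at 10079, 7505 and 8581 CPM against 7473 and 7099 CPM. Their ratio was 2.20, 2.23 and 2.10 in Fli1 KO (2.18 ± 0.0656, SD, n = 3) and 1.93 and 2.24 in NTC (2.08 ± 0.222, SD, n = 2), with Fli1 KO inside the range of NTC. The mitochondrial ribosomal RNA mt-Rnr1 had another order of libraries, with 1368 CPM in Fli1 KO 2, 832 in Fli1 KO 1 and 773 in NTC 1. Of summed nuclear levels, complex I took 28.1% to 29.5% in the 5 libraries, complex II 6.24% to 7.26%, complex III 11.2% to 12.3% and complex V 33.5% to 34.8%, with groups overlapping in each. Complex IV took 19.3%, 18.5% and 18.3% in Fli1 KO (18.7% ± 0.53, SD, n = 3) and 17.4% and 17.3% in NTC (17.4% ± 0.11, SD, n = 2), the 1 complex whose groups did not overlap. Of expressed genes, 26.3% lay apart with Fli1 KO higher and 7.81% with Fli1 KO lower. The shares of the complexes are parts of the same sum, so they depend on each other. The complex IV share was not tested.

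Promoters were read for letters that known regulators of these genes bind, because FLI1 belongs to the ETS family and another ETS factor, GABPA (also called NRF2), and the unrelated factor NRF1 are textbook activators of respiratory genes. RefSeq promoters (GRCm38.p6, 250 bases before to 50 after the start site) were found for 69 nuclear members. On either strand, the ETS letters CCGGAAGT occurred in 5 of the 69 (7.25%) and in 5.69% of 17492 protein-coding genes, the NRF1 letters, GCGCA and GCGC with any 1 base between them, in 17 (24.6%) and 7.17%, and the YY1 letters AAGATGGCG in 7 (10.1%) and 2.14%. Matches of different motifs did not overlap in members. The 5 members with the ETS letters, Cox8a, Ndufs3, Uqcrh, Atp5h and Uqcr11, were at 0.42, 0.27, 0.18, 0.13 and 0.04 (log2 fold change), and in each the groups overlapped. Groups did not overlap in Atp5g2 and Atp5k, which have NRF1 letters, or in Ndufs4, which has YY1 letters. They overlapped in the other members with NRF1 or YY1 letters. Of expressed genes, 26.3% lay apart with Fli1 KO higher and 7.81% with Fli1 KO lower. Differences between members with and without a motif were not tested. Only these exact letters were searched, so other forms of a site were not counted. The Cox7c stretch below, for example, holds caggaagt, which differs from the ETS letters in 1 base. A match is a description of letters and no binding was measured. Below are 180 bases, from 150 before the start site to 30 from it on, for Cox7c, the member nearest a call, with no match (chr13:86046766-86046945, minus strand), Cox8a, with 1 ETS match in this window and another beyond its end (chr19:7217587-7217766, minus strand), and Sdha, with 3 NRF1 matches and overlapping groups (chr13:74350211-74350390, minus strand). Capitals mark the matches.
Cox7c: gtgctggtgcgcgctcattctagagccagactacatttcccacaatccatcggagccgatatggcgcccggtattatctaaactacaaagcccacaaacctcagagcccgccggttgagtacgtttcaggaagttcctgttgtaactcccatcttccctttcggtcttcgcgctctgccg
Cox8a: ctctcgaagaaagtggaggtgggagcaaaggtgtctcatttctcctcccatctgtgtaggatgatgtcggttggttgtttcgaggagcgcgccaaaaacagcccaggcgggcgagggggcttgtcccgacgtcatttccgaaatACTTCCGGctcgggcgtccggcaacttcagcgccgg
Sdha: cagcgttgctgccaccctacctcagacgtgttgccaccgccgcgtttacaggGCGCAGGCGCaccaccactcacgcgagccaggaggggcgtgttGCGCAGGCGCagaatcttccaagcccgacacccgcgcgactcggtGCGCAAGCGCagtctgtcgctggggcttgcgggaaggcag

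Genes that build or feed the chain were not called either. Of 45 tested assembly factors, 25 genes of mitochondrial DNA expression, 85 of the mitochondrial ribosome, 17 of the citric acid cycle, 13 of coenzyme Q synthesis and 23 of protein import, edgeR called 0 (at an unadjusted p under 0.05, in that order, 5, 1, 6, 1, 1 and 5 higher and 1, 0, 1, 0, 1 and 0 lower). Their median log2 fold changes were 0.13, 0.09, 0.06, 0.08, −0.07 and 0.16. At that unadjusted p, all tested genes gave 5.23% higher and 3.71% lower, and expressed genes 15.4% and 2.88%. Taco1, a translational activator of mt-Co1, was at 3.45 times background, with 5.85, 6.60 and 5.44 CPM in Fli1 KO and 9.02 and 10.45 CPM in NTC (−0.69, adjusted p = 0.286). Mtrf1l, a mitochondrial release factor, was at 30.7, 24.4 and 29.6 CPM against 18.4 and 19.4 CPM (0.58, adjusted p = 0.187). The groups did not overlap in either, where 26.3% of expressed genes lay apart with Fli1 KO higher and 7.81% with Fli1 KO lower. Cox20 (0.51), Ssbp1 (0.39), Trmt10c (0.35), Mrpl21 (0.55), Dlat (0.39), Idh3a (0.29), Coq6 (0.53), Pdss2 (−0.39), Grpel1 (0.51) and Tomm7 (0.44) had adjusted p from 0.302 to 0.600.

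Among 10 regulators of respiratory genes, Myc, a growth-promoting transcription factor, was called higher and 0 were called lower. Of all genes tested, 0.458% were called higher and 0.0883% lower. Myc was at 200.1, 160.2 and 211.6 CPM in Fli1 KO and 126.9 and 103.2 CPM in NTC, without overlap. The same held, with Fli1 KO higher, for 26.3% of expressed genes. Fli1 KO averaged 190.6 ± 27.0 CPM (SD, n = 3) where NTC averaged 115.1 ± 16.8 CPM (SD, n = 2). The fitted difference was 0.73 on the log2 scale (SE 0.15, edgeR adjusted p = 0.0225). The call was lost with library size alone (0.59, adjusted p = 0.0607) and without Fli1 KO 1 (0.70, 0.260), Fli1 KO 3 (0.66, 0.370) or NTC 2 (0.59, 0.191). Pprc1, a coactivator related to PGC-1, was at 26.2, 19.1 and 24.6 CPM against 33.3 and 32.6 CPM (−0.50, adjusted p = 0.266). Gabpa and Nrf1, singled out after their values were seen, were at 0.18 and 0.13 (adjusted p = 0.779 and 0.847), with groups that overlapped.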

How the data were processed

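RNA of 5 libraries (3 Fli1 KO, 2 NTC) was made from 10 ng total RNA with an enrichment kit, per the labels' protocols. The deposited values are raw counts per Ensembl gene ID, not normalized. The submitters' processing notes name Trimmomatic 0.39, STAR 2.7.11, FastQC 0.12.0 and the build mm10. Counter, strand setting and handling of multiple positions: not given in the sources used here. Of 56691 IDs 52073 had a symbol and a GENCODE M21 entry.

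Genes were filtered with edgeR's filterByExpr (minimum count 10, 30580 of 52871 genes with any count), scaled with TMM and tested with the robust quasi-likelihood test (edgeR 4.0.16, R 4.3.3), adjusted with Benjamini-Hochberg at 0.05. The fit was tested on simulated data. As background served 1411 autosomal olfactory and vomeronasal receptor genes, by their counts per kb of exon. Near-identical copies were annotated genes with at least 95% identity over 50% of the shorter transcript (BLAST 2.17.0). Named genes were the 12 members with the smallest p, the 2 smallest and the extremes of level per complex, all mitochondrial genes, complex II, Cyc1, Cycs, oxidase isoforms with their partners, and per pathway list the called genes and the 2 with the smallest p. Others named were chosen after their values were seen, as was the division of complexes I, III and V by role. The members and lists were chosen with earlier results of these data known. Alternatives were other scalings and filters, a lowess correction for exon length or GC content (span 0.3), DESeq2 1.42.0, limma-voom (limma 3.58.1), a replicate block, each library left out, and, added after seeing the data, leaving out 4 genes with very high counts.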

Additional observations from a re-analysis of the deposited data

How the results depend on the processing

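The count of members called higher, 0, became 1 with upper-quartile factors, 1 without a filter and 1 with the exon length correction (Cox7c each time). It was 0 to 8 when 1 library was left out, in fits that called 46 to 703 genes higher over all genes. With the replicate number as a block it was 5 (Cox7c, Uqcrc2, Cox8a, Cox6a1 and mt-Nd3), of the pathway genes named Grpel1, Mtrf1l and Tomm7 were then called higher and Pprc1 lower, and calls over all genes went from 140 higher and 27 lower to 728 and 193. The libraries share only a number, and nothing in the labels pairs them. Deviations from group means over 7606 genes correlated at 0.303 for number 1 and 0.446 for number 2, where those of the 2 NTC libraries mirror each other by construction. Those of Fli1 KO 3, whose number no NTC library shares, correlated at 0.212 with NTC 1. No member was called lower in any of the 18 alternatives.

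With 1 library left out the median of nuclear members ran from 0.08 to 0.40 and that of mitochondrial members from 0.15 to 0.36, and by complex from 0.021 to 0.43 (I), 0.02 to 0.37 (II), 0.09 to 0.30 (III), 0.10 to 0.53 (IV) and 0.15 to 0.37 (V). In a fit of genes over 3 times background the nuclear and mitochondrial medians were 0.09 and 0.13, and with library size alone 0.08 and 0.13. The cause was not tested. Of 88 members, 22 changed sign without NTC 2 and 17 with library size alone. Depth limits low genes: SEs of nuclear members ran from 0.13 to 0.54.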
